A study of Homo sapiens with 4 samples.

Results

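The genes described here are 48 genes of DNA excision, mismatch and end-joining repair, chosen by name from 20263 genes in a table of RNA sequencing counts. They comprise 5 mismatch repair genes, 17 nucleotide excision repair genes, 19 base excision repair genes, 6 end-joining genes and MGMT, which acts by direct reversal. The RNA came from MDA-MB-231 cells, an established line of human triple-negative breast cancer, in 2 groups of 2 libraries. One group received DMSO, the solvent control, and the other Neoribocic, each for 24 h in medium with 10% serum. The treatment protocol writes Rib_CA, which was taken here to be the same agent, although no label says so. No source used here states the dose, and the series title ties the compound to a block of the cell cycle. Whether the 2 libraries of each group stem from separate cultures is not stated in the labels. The p-values therefore reflect the scatter among these samples alone, and that scatter may be technical.

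Mismatch repair removes bases wrongly paired during replication: MutS-type proteins find the mismatch and MutL-type proteins license the cut. Nucleotide excision repair cuts out bulky lesions such as ultraviolet photoproducts after they are found by XPC or by a stalled RNA polymerase, with the helicase complex TFIIH opening the DNA. Base excision repair begins with a glycosylase that removes 1 damaged base, after which APEX1 cuts the backbone and polymerase and ligase close the gap under the lead of PARP1 and XRCC1. Non-homologous end-joining seals double-strand breaks: the Ku dimer of XRCC5 and XRCC6 binds the ends, recruits the kinase encoded by PRKDC, and the XRCC4 and LIG4 complex ligates them. Several of these genes, among them UNG, FEN1, LIG1 and MSH6, serve DNA replication and are known to be expressed most in dividing cells.

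The libraries held 34774542 to 43014212 counts. Levels are given as TMM-scaled CPM, the count scaled by library size and composition, and are means ± SD over the 2 libraries of a group. Mitochondrial genes held 21.7% of the counts of DMSO replicate 2 against 5.76% to 8.68% in the other libraries. Of the markers fixed for the line, VIM (vimentin) stood at 2804 to 4238 CPM, AXL at 1110 to 1821 CPM, and CD44, CAV1 and LGALS1 at 220 CPM or above in every library. Of the markers fixed as absent, CDH1, ESR1 and PGR reached at most 0.141, 0.649 and 1.77 CPM, while the epithelial gene EPCAM was detected at 9.31 to 9.93 CPM. MKI67, which encodes the proliferation marker Ki-67, stood at 1445 and 1524 CPM in DMSO and 120 and 98.6 CPM in Neoribocic. In bulk RNA, fewer cells of a type and less RNA per cell cannot be told apart.

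Setting Neoribocic against DMSO asks which repair genes differ after the compound. Of the 6 end-joining genes 3 were lower, 0 were higher and 3 did not pass the threshold; PRKDC, at 5.26-fold lower, had the largest change among the 6. Both MutS-type mismatch genes fell, with log2 fold changes of -1.71 for MSH3 and -1.36 for MSH6. Changes given below without a unit are log2 fold changes, Neoribocic minus DMSO, ± SE. Excision repair genes moved both ways, as did all tested genes, of which 21.3% fell and 19.1% rose. In nucleotide excision repair 5 of 17 genes fell (29.4%) and 3 rose (17.6%). In base excision repair 4 of 19 fell (21.1%) and 5 rose (26.3%).

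In all, 14 of the 47 members that could be tested were lower and 8 were higher by edgeR's quasi-likelihood test with a Benjamini-Hochberg adjusted p under 0.05. Among all 13879 genes tested, 21.3% were lower and 19.1% higher (40.4% in either direction), so the share of members that fell, 29.8%, stood above the background and the share that rose, 17.0%, lay near it, with no test of either difference. The groups did not overlap in 23 members that were lower and 17 that were higher in Neoribocic, against 37.3% and 37.8% of all tested genes (75.1% together). All 22 called members are among these 40. The median log2 fold change (Neoribocic minus DMSO) was -0.21 over the members and 0.01 over all genes. By subgroup the median was -0.99 for end-joining, -0.58 for mismatch repair, -0.02 for nucleotide excision repair and 0.39 for base excision repair. Without Neoribocic replicate 2 the last was 0.20, and without DMSO replicate 1 the mismatch repair median was -0.11 and that of nucleotide excision repair 0.17. No test of one subgroup against another was made. Leaving out any 1 library left a group with 1 library, and fewer members then passed in each direction. The same held among all tested genes, lower and higher alike. Lower nucleotide excision repair genes, and base excision repair genes in both directions, also became fewer with each omission. Higher nucleotide excision repair genes became fewer without DMSO replicate 1 or Neoribocic replicate 1.

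**Figure D1:**
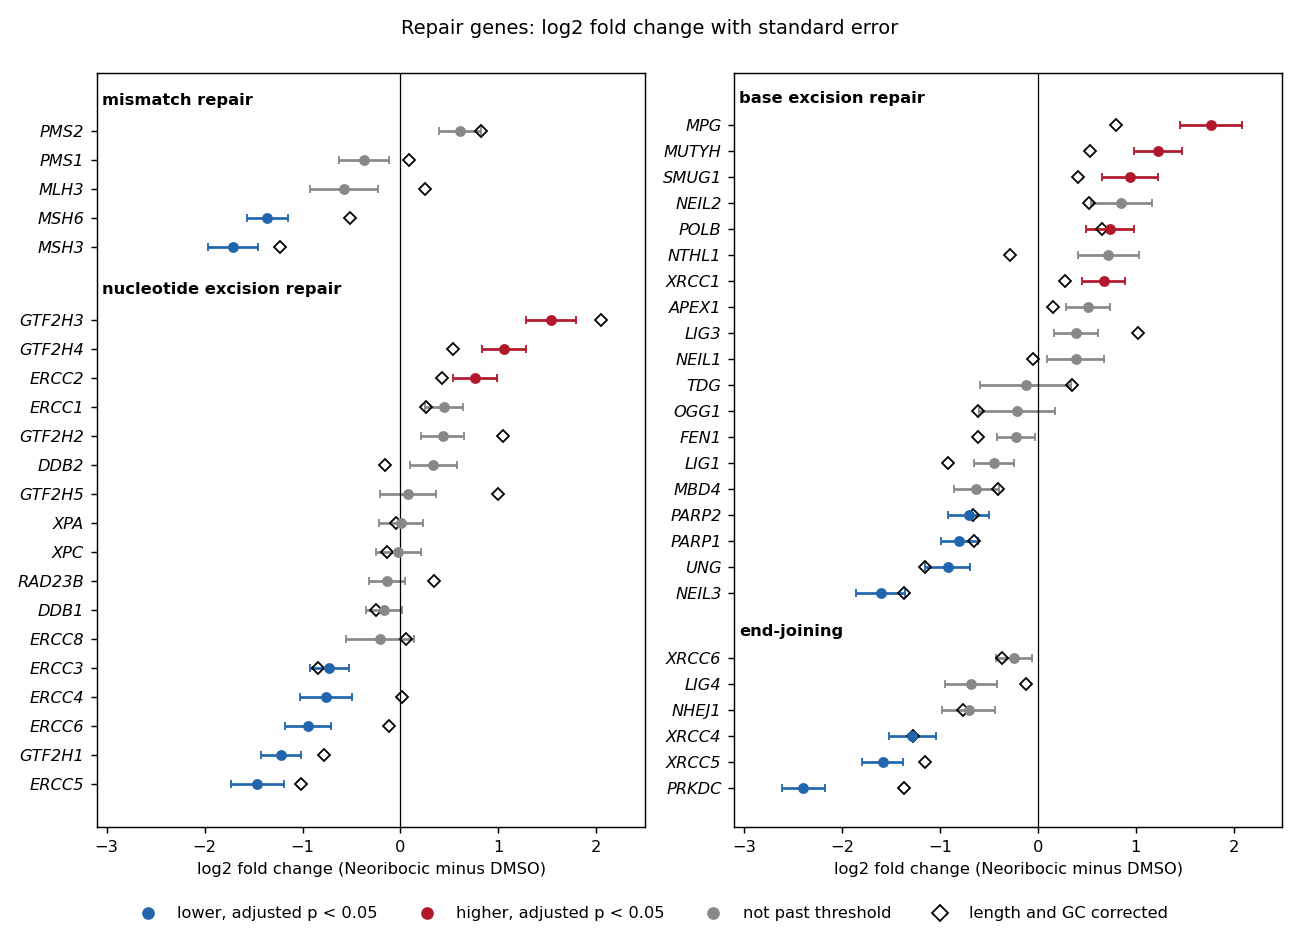
Log2 fold change (Neoribocic minus DMSO) of each tested repair gene, with its standard error as the bar; colour marks the call and open diamonds the value after correction for transcript length and GC content. All 6 end-joining genes lie below 0, whereas excision repair genes lie on both sides.

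Fold changes in these libraries followed transcript length and GC content. Across the 13862 tested genes with both properties, the Spearman correlation of the log2 fold change was -0.40 with length and 0.45 with GC content (genes are not independent replicates). A value corrected for both is therefore given for each member named below that it moves by over 1.5 times or whose call it changes. With the correction 14 members were lower and 7 higher, against 19.4% and 16.5% of all genes (35.9% together). Of the original calls, 11 of 14 lower and 4 of 8 higher members kept their call and direction. Among all tested genes 2000 of 2960 lower and 1431 of 2650 higher did so, and the difference was not tested. The members that lost a call were MSH6, ERCC6 and ERCC4 among those lower, and ERCC2, SMUG1, MUTYH and XRCC1 among those higher. FEN1, LIG1 and NHEJ1 were newly lower, and PMS2, GTF2H2 and LIG3 newly higher. The corrected medians were -0.96 for end-joining, 0.083 for mismatch repair, 0.02 for nucleotide excision repair and -0.049 for base excision repair.

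The calls of 8 members held under all 13 alternatives, the correction and the omission of any library included. These were PRKDC, XRCC5 and XRCC4 of end-joining, MSH3 of mismatch repair, GTF2H1, GTF2H3 and ERCC5 of nucleotide excision repair, and NEIL3 of base excision repair. Of these 8, GTF2H3 was the one that rose.

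Promoter sequences are shown for 3 of the genes that fell and for GTF2H3, to let the reader see the words that cell cycle transcription factors are known to use. E2F factors drive replication genes through words such as TTTCCCGC, TTTGGCGC, TTTCGCGC and TTTGCCGC, and the cell cycle homology region (CHR) of mitotic genes reads TTTGAA or TTCGAA. RefSeq promoter windows of GRCh38.p14, from 250 bases before to 50 after a start, were found for 43 members and searched for these words on both strands. PRKDC, XRCC5, NEIL2, SMUG1 and POLB had no window in the table. The 3 genes that fell were picked because they hold a word, as 6 of the 12 lower members with a window do, and GTF2H3 because its rise held under every alternative run. Each line gives the 250 bases before the start, with the words found in capitals.
MSH3, chr5:80654402-80654651, plus strand: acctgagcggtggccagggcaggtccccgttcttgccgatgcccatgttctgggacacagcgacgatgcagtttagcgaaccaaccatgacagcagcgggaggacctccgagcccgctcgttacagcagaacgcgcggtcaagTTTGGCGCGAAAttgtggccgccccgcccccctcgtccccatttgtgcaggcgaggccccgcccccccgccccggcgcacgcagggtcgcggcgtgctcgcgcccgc
UNG, chr12:109097922-109098171, plus strand: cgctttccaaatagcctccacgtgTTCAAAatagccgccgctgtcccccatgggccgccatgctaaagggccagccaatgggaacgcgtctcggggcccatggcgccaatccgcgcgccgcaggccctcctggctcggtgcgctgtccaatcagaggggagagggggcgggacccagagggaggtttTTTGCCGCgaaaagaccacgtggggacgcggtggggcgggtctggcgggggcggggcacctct
NEIL3, chr4:177309624-177309873, plus strand: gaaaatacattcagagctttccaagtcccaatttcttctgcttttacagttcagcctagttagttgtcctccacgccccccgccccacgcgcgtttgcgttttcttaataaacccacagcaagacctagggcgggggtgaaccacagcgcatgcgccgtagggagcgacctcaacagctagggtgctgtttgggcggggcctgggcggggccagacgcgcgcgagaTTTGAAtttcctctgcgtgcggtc
GTF2H3, chr12:123633579-123633828, plus strand: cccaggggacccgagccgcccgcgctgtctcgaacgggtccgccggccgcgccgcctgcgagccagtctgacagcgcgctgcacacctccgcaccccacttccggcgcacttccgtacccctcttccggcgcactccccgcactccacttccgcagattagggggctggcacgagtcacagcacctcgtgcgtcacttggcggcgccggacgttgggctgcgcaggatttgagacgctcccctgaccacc

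In MSH3 the run in capitals holds TTTGGCGC and, overlapping it on the other strand, TTTCGCGC. UNG has 2 windows, and the 1 shown was picked for its E2F-type word, while the other holds none of the words. The UNG window shown holds TTTGCCGC at position -63 from its start and TTTGAA on the other strand at -226. NEIL3 holds TTTGAA at -24. GTF2H3 holds none of the words in this window. An E2F-type word stood in the windows of 3 of 12 lower members (MSH3, MSH6 and UNG), 0 of 6 higher members and 4 of 24 that did not pass the threshold (XPC, PMS2, LIG1 and XRCC6). Among 11039 tested genes with a window 6.43% held one. A CHR word stood in 4 of 12 lower members (NEIL3, ERCC6, UNG and PARP2), 2 of 6 higher members (MUTYH and XRCC1) and 2 of 24 others (DDB2 and ERCC1), against 15.7% of tested genes. A match is a description of the letters only.

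PRKDC (ENSG00000253729) encodes DNA-PKcs, the kinase that Ku brings to broken ends. It stood at 604 and 441 CPM in the DMSO libraries and at 98.3 and 100.2 CPM in the Neoribocic libraries, so the groups were far apart and the Neoribocic libraries nearly equal. The log2 fold change was -2.40 ± 0.22 (SE; edgeR adjusted p = 5.74e-04), and -1.36 with the correction (edgeR adjusted p = 0.00462). Its transcript, at 13.5 kb, is the longest of the 48.

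XRCC5 (ENSG00000079246), which encodes the Ku80 subunit, stood at 432 and 355 CPM in DMSO and 120 and 143 CPM in Neoribocic, a log2 fold change of -1.59 ± 0.21 (edgeR adjusted p = 0.00125). Its partner XRCC6, which encodes Ku70, stood at 389 and 376 CPM in DMSO and 312 and 334 CPM in Neoribocic. XRCC6 was lower in both Neoribocic libraries but, at -0.24 ± 0.18, did not pass the threshold (edgeR adjusted p = 0.305). XRCC4 (ENSG00000152422), the scaffold of the ligase complex, stood at 25.8 and 19.7 CPM in DMSO and 9.09 and 9.65 CPM in Neoribocic, a log2 fold change of -1.28 ± 0.24 (edgeR adjusted p = 0.00479) that the correction left at -1.27.

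The other end-joining genes did not pass. LIG4, the ligase itself, was at -0.68 ± 0.26 (corrected -0.12) and NHEJ1, which encodes the bridging factor XLF, at -0.71 ± 0.27, with edgeR adjusted p = 0.0679 and 0.0671. LIG4 passed without DMSO replicate 2 (0.0377), and NHEJ1 without DMSO replicate 1 (0.0410) and with the correction (-0.76; 0.0421). Of the exon bases of NHEJ1 65.4% are shared with another gene on its strand. In all 6 end-joining genes both Neoribocic libraries lay below both DMSO libraries, as they did in 37.3% of all tested genes.

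MSH3 and MSH6 encode the MutS-type subunits that recognise small loops and single mismatches. MSH3 (ENSG00000113318) stood at 37.9 and 32.2 CPM in DMSO and 9.02 and 12.4 CPM in Neoribocic (log2 fold change -1.71 ± 0.26; edgeR adjusted p = 0.00191). The correction brought it to -1.23, still past the threshold at 0.00529. MSH6 (ENSG00000116062) stood at 57.9 and 54.3 CPM in DMSO and 22.1 and 21.6 CPM in Neoribocic (-1.36 ± 0.21; edgeR adjusted p = 0.00215). The libraries of each group lay close together, yet the correction brought MSH6 to -0.52 and ended the call (edgeR adjusted p = 0.0656). Exons of FBXO11 on the opposite strand overlap 16.2% of the exon bases of MSH6.

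The MutL-type genes did not follow. MLH3 was at -0.58 ± 0.35, with 28.2 and 15.9 CPM in DMSO and 11.3 and 18.3 CPM in Neoribocic, so its groups overlapped. PMS1 was at -0.37 ± 0.26, and the correction turned MLH3 to 0.26 and PMS1 to 0.083. Leaving out 1 library put MLH3 at -0.96 to -0.11 and PMS1 at -0.62 to -0.067, each nearest 0 without DMSO replicate 1. PMS2, the subunit with the nicking activity, went the other way, from 19.2 and 20.1 CPM in DMSO to 30.0 and 30.1 CPM in Neoribocic (0.61 ± 0.22). Its edgeR adjusted p was 0.0508, and it passed with DESeq2 (0.0221), with RLE (0.0489) or upper-quartile factors (0.0248), with library totals (0.0466), with halved counts (0.0487) and with the correction (0.82; 0.0120). Reads of PMS2 can be divided with closely related pseudogene copies.

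In nucleotide excision repair the genes that find damage did not pass. XPC, the sensor of helix distortion, was at -0.02 ± 0.23, its partner RAD23B at -0.14 ± 0.18, and the ultraviolet damage sensor genes DDB1 and DDB2 at -0.17 ± 0.18 and 0.34 ± 0.24. The correction gave -0.14 for XPC, 0.35 for RAD23B and -0.15 for DDB2, and none of these passed. RAD23B and DDB1 are among the most abundant members, at 422 ± 12.8 and 416 ± 9.79 CPM in DMSO and 383 ± 22.6 and 370 ± 21.7 CPM in Neoribocic. Of the factors that couple repair to transcription, ERCC6 (CSB) fell from 21.4 and 19.3 CPM to 9.44 and 11.7 CPM, while ERCC8 (CSA) was at -0.21 ± 0.35 (corrected 0.060). The call of ERCC6 (-0.94 ± 0.24; edgeR adjusted p = 0.0145) was lost with the correction (-0.12; 0.571), with library totals (0.0619), and without DMSO replicate 1 (0.0568) or Neoribocic replicate 1 (0.103).

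The 7 TFIIH genes among the members, which are not all the genes of that complex, split. Of these, 2 were lower and 3 higher, against 21.3% and 19.1% of all tested genes. GTF2H3 (ENSG00000111358), which encodes the p34 subunit, rose from 57.7 and 36.2 CPM in DMSO to 127 and 146 CPM in Neoribocic, a log2 fold change of 1.54 ± 0.26 (edgeR adjusted p = 0.00305; corrected 2.05, adjusted p = 0.00321). GTF2H1 (ENSG00000110768), which encodes the p62 subunit, fell from 82.2 and 76.7 CPM to 31.4 and 36.9 CPM, at -1.22 ± 0.21 (edgeR adjusted p = 0.00319; corrected -0.78, adjusted p = 0.00960). Subunits of 1 complex thus moved in opposite directions, each without overlap between the groups.

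GTF2H4, which encodes p52, rose from 38.3 and 34.9 CPM to 85.9 and 66.6 CPM (1.06 ± 0.22; edgeR adjusted p = 0.00689; corrected 0.54). Of its exon bases 79.0% are shared with VARS2 on the same strand, so its reads may not be told from those of its neighbour, and the call was lost without Neoribocic replicate 1 (0.0544). The 2 helicase genes also parted. ERCC2 (XPD) rose from 76.3 and 104.6 CPM to 169 and 137 CPM (0.76 ± 0.23; edgeR adjusted p = 0.0276), and ERCC3 (XPB) fell from 73.3 and 71.0 CPM to 45.7 and 41.5 CPM (-0.73 ± 0.20; 0.0206).

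Both helicase calls were fragile. That of ERCC2 was lost without DMSO replicate 1 (edgeR adjusted p = 0.134), without Neoribocic replicate 1 (0.164) and with the correction (0.42; 0.0965). That of ERCC3 was lost with library totals (0.112) and without DMSO replicate 1 (0.0702), DMSO replicate 2 (0.0626), Neoribocic replicate 1 (0.0773) or Neoribocic replicate 2 (0.0926). GTF2H2 was at 0.43 ± 0.22 and passed with the correction (1.05; 0.00572), although near-identical copies of this gene can share its reads. GTF2H5, the smallest subunit, was at 0.08 ± 0.29 (corrected 1.002).

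XPA, which verifies the lesion, was at 0.01 ± 0.22 (corrected -0.040), with 19.5 and 21.9 CPM in DMSO and 21.9 and 19.6 CPM in Neoribocic. The nucleases that cut on either side of it differed. ERCC5 (XPG; ENSG00000134899) fell from 65.4 and 45.2 CPM to 17.0 and 23.1 CPM, at -1.47 ± 0.27 (edgeR adjusted p = 0.00436; corrected -1.02), with 63.2% of its exon bases shared with the neighbouring BIVM and its read-through gene. ERCC4 (XPF) fell by a narrow margin (-0.76 ± 0.27; edgeR adjusted p = 0.0497), and ERCC1, its obligate partner, was at 0.45 ± 0.20 (corrected 0.27; edgeR adjusted p = 0.101; 0.0450 with upper-quartile factors).

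The call of ERCC4 was lost with the correction (0.02; edgeR adjusted p = 0.959), with RLE (0.0509) and upper-quartile factors (0.0864), with library totals (0.170) and with limma-voom (0.0542). It was also lost without DMSO replicate 1 (0.0928), DMSO replicate 2 (0.152) or Neoribocic replicate 1 (0.272). An opposite-strand gene overlaps 25.7% of the exon bases of ERCC4, 28.6% of those of ERCC1 and 30.4% of those of XPC.

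**Figure D2:**
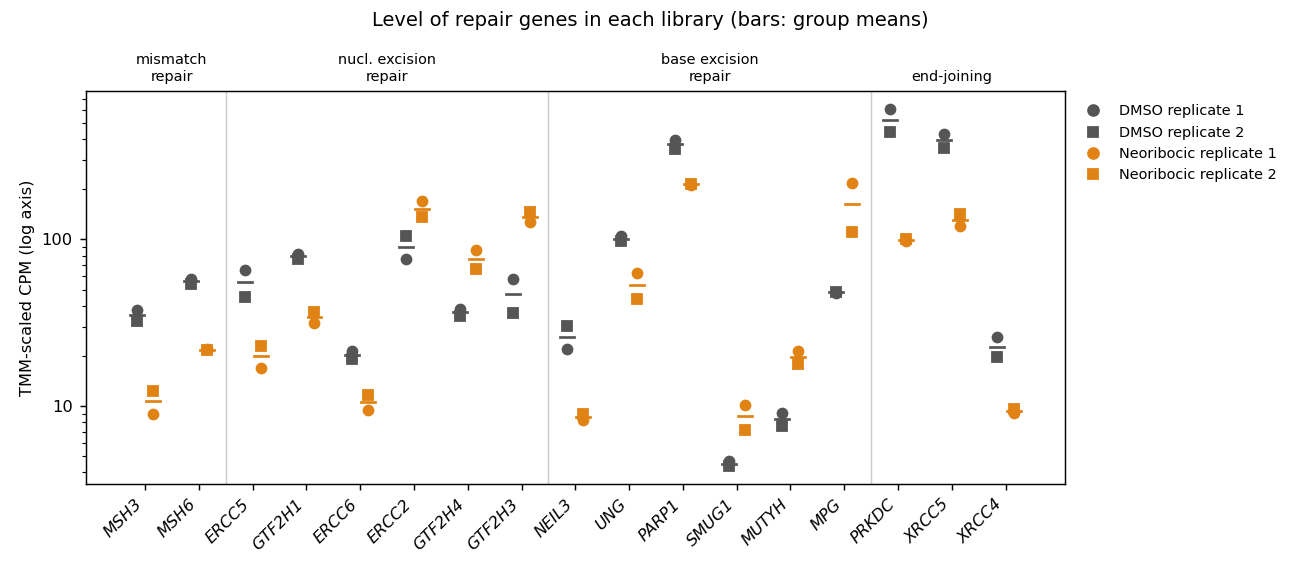
Level of 17 repair genes in each library as TMM-scaled CPM on a log axis, with circles for replicate 1, squares for replicate 2 and short bars for the group means. The groups do not overlap for any of the genes drawn, which were chosen among those past the threshold; MPG has the widest spread in Neoribocic, 217 and 111 CPM.

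Among the 11 glycosylases of base excision repair 2 fell and 3 rose, against 21.3% and 19.1% of all tested genes. With the correction 2 fell and 1 rose, against 19.4% and 16.5%. Neither difference was tested. NEIL3 (ENSG00000109674), a glycosylase of replicating cells that acts on single-stranded DNA and crosslinks, fell from 22.1 and 30.1 CPM to 8.24 and 8.91 CPM (-1.60 ± 0.25; edgeR adjusted p = 0.00231). UNG, which removes uracil at replication forks, fell from 104.6 and 97.6 CPM to 62.8 and 44.0 CPM (-0.92 ± 0.23; edgeR adjusted p = 0.0144). The correction left NEIL3 at -1.36 and UNG at -1.15, both past the threshold. The call of UNG was lost without DMSO replicate 1 (0.0584) or Neoribocic replicate 2 (0.0768).

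MPG (ENSG00000103152), which removes alkylated purines, rose from 47.99 and 48.3 CPM to 217 and 111 CPM (1.77 ± 0.32; edgeR adjusted p = 0.00507; corrected 0.80, adjusted p = 0.0275). Its DMSO libraries were nearly equal and its Neoribocic libraries far apart, and the call was lost without DMSO replicate 1 (0.0544) or replicate 2 (0.0526). MUTYH, which removes adenine opposite oxidised guanine, rose from 9.14 and 7.59 CPM to 21.5 and 17.8 CPM (1.23 ± 0.24; edgeR adjusted p = 0.00584; corrected 0.53, adjusted p = 0.0806). SMUG1, a second uracil glycosylase, rose from 4.68 and 4.36 CPM to 10.2 and 7.22 CPM (0.95 ± 0.29; edgeR adjusted p = 0.0294). Its call was lost with the correction (0.41; 0.207) and without DMSO replicate 1 (0.0692), DMSO replicate 2 (0.0849) or Neoribocic replicate 1 (0.217). The uracil glycosylase genes UNG and SMUG1 thus moved in opposite directions, from unequal levels.

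The remaining glycosylases did not pass. NTHL1 was at 0.72 ± 0.31 (corrected -0.29), NEIL1 at 0.39 ± 0.29 (corrected -0.05) and NEIL2 at 0.85 ± 0.31 (corrected 0.52), these 3 acting on oxidised bases. NTHL1 passed without Neoribocic replicate 2 (edgeR adjusted p = 0.0305) and with upper-quartile factors (0.0480). NEIL2 missed the threshold (edgeR adjusted p = 0.0575) and reached 0.0301 to 0.0497 with upper-quartile factors, library totals, no count filter, the replicate block or DESeq2. OGG1, the 8-oxoguanine glycosylase, was at -0.21 ± 0.39 (corrected -0.61) and the thymine glycosylase TDG at -0.13 ± 0.46 (corrected 0.35). Both had wide spreads within groups, OGG1 at 13.8 and 30.6 CPM in DMSO and TDG at 41.0 and 20.2 CPM. MBD4, which acts on mismatches in methylated CpG, was at -0.63 ± 0.23 (corrected -0.40; edgeR adjusted p = 0.0588; 0.0412 with DESeq2).

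Of the 8 genes that act after the glycosylases 2 fell and 2 rose, against 21.3% and 19.1% of all tested genes. The corrected counts were 4 lower and 2 higher, against 19.4% and 16.5%. PARP1, the sensor of strand breaks, fell from 396 and 349 CPM to 213 and 214 CPM, at -0.80 ± 0.19 (edgeR adjusted p = 0.0107; 0.0706 without Neoribocic replicate 1). Its relative PARP2 fell from 46.4 and 50.6 CPM to 30.3 and 29.1 CPM, at -0.71 ± 0.21 (0.0269). XRCC1, the scaffold that PARP1 recruits, rose from 22.9 and 22.2 CPM to 38.4 and 33.5 CPM, at 0.67 ± 0.22 (0.0375). POLB, the gap-filling polymerase, rose from 9.81 and 7.81 CPM to 14.3 and 15.2 CPM, at 0.74 ± 0.24 (0.0407).

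PARP2, XRCC1 and POLB lost their calls on omission of any single library, at edgeR adjusted p of 0.0606 to 0.107, 0.0641 to 0.168 and 0.0518 to 0.144. PARP2 also lost it with library totals (0.148) and upper-quartile factors (0.0519), and XRCC1 with the correction (0.27; 0.206). APEX1, the abasic endonuclease, was at 0.51 ± 0.23 (corrected 0.15) and passed under none of the alternatives run.

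The flap nuclease FEN1 was at -0.22 ± 0.20 and the replicative ligase LIG1 at -0.45 ± 0.20, while LIG3, the ligase that partners XRCC1, was at 0.39 ± 0.22. None passed, and the correction widened each: FEN1 to -0.61, LIG1 to -0.92 and LIG3 to 1.03 (edgeR adjusted p = 0.0285, 0.00738 and 0.0114). LIG1 stood at 80.1 and 77.1 CPM in DMSO and 63.0 and 52.3 CPM in Neoribocic, and LIG3 at 29.9 and 24.1 CPM in DMSO and 36.9 and 34.2 CPM in Neoribocic. Opposite-strand genes overlap 30.5% of the exon bases of LIG3, 17.5% of XRCC1, 27.3% of MPG and 14.1% of MUTYH.

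MGMT, the methyltransferase that removes alkyl groups from guanine in a single step, had 0 counts in each of the 4 libraries. A count of 0 allows up to 3 counts, or 0.0632 to 0.0915 CPM per library, for counting error only. It was not tested, and no fold is given.

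Levels of different genes were compared per kb of transcript. In DMSO the 3 highest members were XRCC6, XRCC5 and RAD23B at 141, 105 and 102 CPM per kb, and in Neoribocic MPG, XRCC6 and RAD23B at 138, 119 and 93.0 CPM per kb. XRCC5 moved from rank 2 to rank 11 of 48 and PRKDC from 9 to 29, while GTF2H3 moved from 20 to 9. Ratios of such levels were taken within each library for 8 pairs of genes whose proteins are partners or close relatives, a set chosen with the fold changes known.

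XRCC5 per XRCC6, the subunits of Ku, was 0.800 and 0.680 in DMSO and 0.276 and 0.308 in Neoribocic. GTF2H3 per GTF2H1 was 0.630 and 0.422 in DMSO and 3.62 and 3.56 in Neoribocic, and ERCC2 per ERCC3 was 0.694 and 0.983 against 2.48 and 2.21. ERCC4 per ERCC1 was 0.115 and 0.134 in DMSO and 0.0389 and 0.0720 in Neoribocic. In these 4 pairs the groups were well apart, but the ratios carry no correction for length and GC content. With it the log2 fold changes of ERCC4 and ERCC1 were 0.015 and 0.27, neither past the threshold. Those of XRCC5 and XRCC6 were -1.15 and -0.36, of GTF2H3 and GTF2H1 2.05 and -0.78, and of ERCC2 and ERCC3 0.42 and -0.84. LIG4 per XRCC4 was higher in Neoribocic, at 0.517 and 0.481 against 0.349 and 0.303. PARP1 per PARP2 overlapped between the groups, at 4.06 and 3.29 against 3.34 and 3.50. With 2 libraries a group, the 2-sided exact permutation test cannot go below p = 0.333, the value of 7 of the 8 pairs, so these ratios are descriptions.

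**Figure D3:**
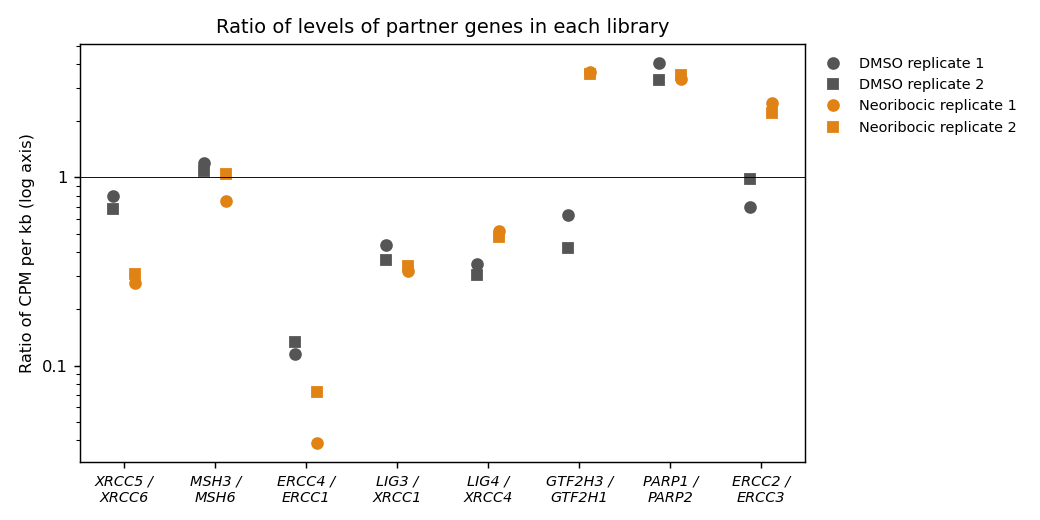
Ratio of the levels per kb of 8 pairs of genes in each library, on a log axis, with circles for replicate 1 and squares for replicate 2. GTF2H3 per GTF2H1 lies below 1 in both DMSO libraries and at 3.56 and 3.62 in the Neoribocic libraries.

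The members' fold changes were set beside those of all genes of like length. All tested genes were divided by transcript length into 3 bins of like size. Among the longest transcripts, 4.16 kb and above, 5 of 11 members were lower and 0 higher, against 36.5% and 9.07% of all genes there. Among transcripts of 2.32 to 4.16 kb 6 of 20 members were lower and 3 higher, against 19.4% and 17.8%. Among the shortest 3 of 16 members were lower and 5 higher, against 8.11% and 30.5%. The median log2 fold change of members was -0.68, -0.19 and 0.17 in these bins from long to short, and that of all genes -0.43, 0.00 and 0.45. Members thus sat below the median of their bin in all 3, with no test made of it.

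**Figure D4:**
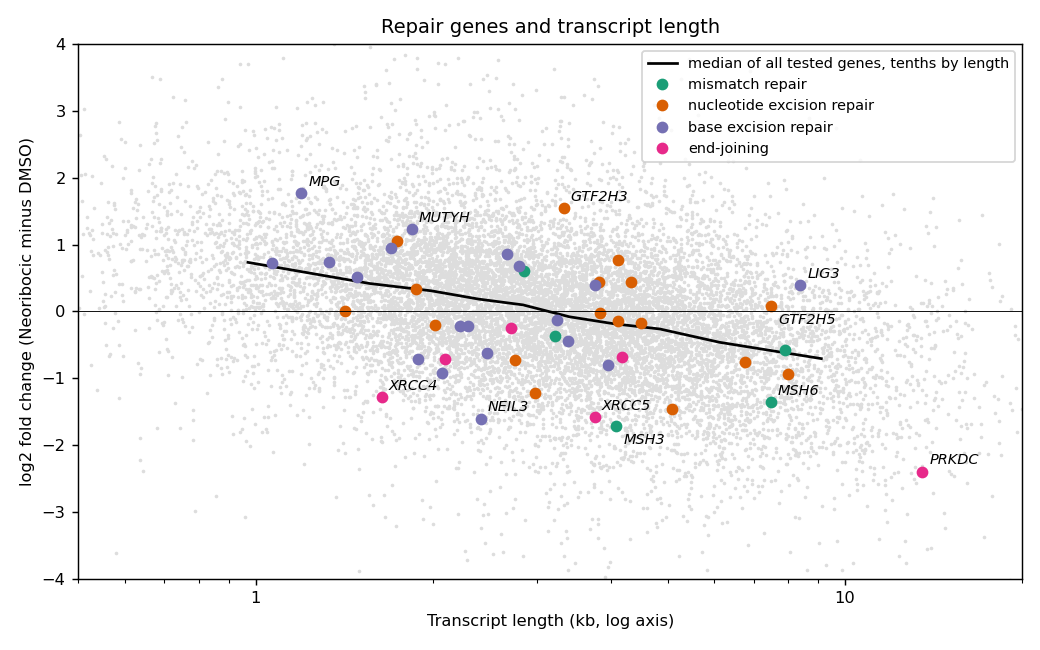
Log2 fold change (Neoribocic minus DMSO) against transcript length in kb on a log axis, with all tested genes in grey, their median in 10 bins by length as the black line, and the repair genes coloured by subgroup. XRCC4, NEIL3, XRCC5, MSH3 and PRKDC lie well below the line, and MPG, GTF2H3 and LIG3 above it.

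The other genes of these pathways, a fixed list of 57, showed 15 lower (26.3%) and 9 higher (15.8%), near the 21.3% and 19.1% of all tested genes. By pathway these were 6 lower and 1 higher of 15 for mismatch repair, 3 and 2 of 15 for nucleotide excision repair, 2 and 3 of 10 for base excision repair, 4 and 2 of 15 for end-joining, and 0 and 1 of 2 for direct reversal. Counts this small were not tested against that background. Their medians in the same order were -0.44, -0.19, 0.41, -0.10 and 0.83. With the correction they were -0.53, -0.19, 0.15, 0.12 and 0.28. The 2 higher end-joining genes of this list, named after their values were seen, were PAXX at 1.75 ± 0.31 and MAD2L2 at 1.22 ± 0.26 (edgeR adjusted p = 0.00358 and 0.00764). Both lost the call with the length and GC correction, at 0.69 for PAXX and 0.43 for MAD2L2 (edgeR adjusted p = 0.0714 and 0.101). SETD2, the histone methyltransferase whose mark MSH6 binds, fell from 133 and 167 CPM to 35.3 and 42.2 CPM (-1.95 ± 0.22; edgeR adjusted p = 7.98e-04; corrected -1.13). CUL4B, a scaffold of the ubiquitin ligases that hold DDB1, was at -1.90 and EXO1, the exonuclease of mismatch repair, at -1.71, both lower (edgeR adjusted p = 0.00101 and 0.00130).

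Those higher with the smallest p were ADPRS, POLL and POLD4. ADPRS is a hydrolase that removes ADP-ribose after PARP1 action. POLL is a gap-filling polymerase, listed here under base excision repair, and POLD4 the small subunit of DNA polymerase delta. ADPRS rose from 23.5 and 22.0 CPM to 82.7 and 59.2 CPM (1.64 ± 0.24; edgeR adjusted p = 0.00174; corrected 0.98). POLL rose by 1.48 (corrected 0.96) and POLD4 by 1.74 (corrected 0.78), with edgeR adjusted p = 0.00247 and 0.00305.

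The list of proliferation genes was fixed with earlier results of these data known. Of its 7 genes 6 were lower and 0 higher, against 21.3% and 19.1% of all tested genes. The median of the list was -2.28. Those lower were MKI67 at -3.76, TOP2A at -3.20, CCNE2 at -2.58, MCM6 at -2.28, CCNA2 at -1.53 and CDK1 at -0.91, the last lost without Neoribocic replicate 1 (edgeR adjusted p = 0.0561). E2F1 was at -0.54 ± 0.23 and, with the correction, at -1.18 (edgeR adjusted p = 0.00437). These genes moved with the repair genes that fell, and their part in those results was not tested. Among the replication-linked repair genes named at the start, UNG and MSH6 were lower and FEN1 and LIG1 did not pass; with the correction UNG, FEN1 and LIG1 were lower and MSH6 did not pass.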

How the data were processed

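The values are raw counts per Ensembl gene, deposited by the authors as whole numbers with no normalization. How reads were aligned, counted and assigned to strands is not stated. Mouse builds (GRCm38, mm10) appear in the submitters' processing notes although the gene IDs are human, so no coordinates of counted genes are given. Small counts were mostly even (62.3% to 65.4% of counts under 20), as when both mates of a pair are counted.

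Symbols came from a table of gene names (20148 of 20263 IDs matched; all 48 members), and transcript length, GC content and exon overlap from GENCODE release 29. Tests used edgeR 4.0.16 in R 4.3.3: filterByExpr, TMM, robust glmQLFit and glmQLFTest with group as the only term, adjusted over all 13879 genes tested. SE is the log2 fold change divided by the square root of F. For the correction, each library's log2 CPM was fitted as a smooth function of both properties (mgcv 1.9.3) and the fit entered edgeR as offsets. Alternatives included DESeq2 1.42.0 and limma-voom (limma 3.58.1).

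On simulated counts for Neoribocic against DMSO (13688 genes in the fit, dispersions from the trend), the test called 1 of 66 genes altered 1.5-fold, 21 of 66 altered 2-fold and 60 of 64 altered 4-fold; 2 of 84 calls were false. With gene-wise dispersions (13686 genes) 16 of 89 calls were false. Each simulation altered 200 genes, whereas 5610 of the 13879 genes tested were called in the data. The adjusted p depends on that share, so these recoveries do not give the sensitivity of the comparison reported here.

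Members and lists were chosen with earlier results of these data known. All members are named with a value. Values in every library are given for those past the threshold with a log2 fold change of at least 1 in size and, in each subgroup, for up to 3 per direction with the smallest p, and for others where a sentence turns on them. Of the other pathway genes, up to 3 per direction with the smallest p are named.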

Additional observations from a re-analysis of the deposited data

How the results depend on the processing

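Over the 13 alternatives, 8 of the 22 called members kept their call and direction. Leaving out 1 library gave 9 to 12 lower and 3 to 7 higher members, against 14 and 8. By subgroup it gave 2 to 4 lower and 1 to 3 higher in nucleotide excision repair, 2 to 3 and 1 to 4 in base excision repair, 1467 to 2382 and 1001 to 2215 among all tested genes, and medians of -0.96 to -0.11 in mismatch repair, -0.13 to 0.17 in nucleotide excision repair, 0.20 to 0.47 in base excision repair and -1.19 to -0.99 in end-joining. Mismatch repair had 1 higher member (PMS2), not 0, with RLE, upper-quartile factors, library totals, DESeq2, halved counts and the length and GC correction, and 1 lower with that correction. Nucleotide excision repair had 2 lower with library totals and 3 with the correction, and base excision repair 3 higher with the correction, which moved the medians of mismatch and base excision repair to 0.083 and -0.049. The cause was not tested.

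Values that changed sign had not passed the threshold, except ERCC4. With the correction they were MLH3 (0.26), PMS1 (0.083), RAD23B (0.35), DDB2 (-0.15), ERCC8 (0.060), XPA (-0.040), ERCC4 (0.015), TDG (0.35), NTHL1 (-0.29) and NEIL1 (-0.049). With library totals they were XPC (0.14), RAD23B (0.037), DDB1 (1.47e-04) and TDG (0.026), and with upper-quartile factors XPC (0.11) and TDG (0.016). Leaving out 1 library put XPC at -0.18 to 0.17, ERCC8 at -0.63 to 0.42, XPA at -0.077 to 0.10, GTF2H5 at -0.24 to 0.35, TDG at -0.72 to 0.47 and OGG1 at -0.68 to 0.49. Library totals and upper-quartile factors moved the median of all genes by 0.17 and 0.12, and the share of calls that were higher from 47.2% to 59.6% and 56.8%.

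The replicate block gave 2917 lower and 2677 higher genes against 2960 and 2650 and 21 called members against 22. Deviations of same-numbered libraries correlated at -0.055 between groups, so the numbers are not known to pair the samples. With the block XRCC1 (edgeR adjusted p = 0.0624) and POLB (0.0508) lost their calls and NEIL2 gained one (0.0484). With 2 libraries a group, 1.5-fold changes were mostly missed in the simulation. It altered 200 genes only, far fewer than were called in the data, so it does not give the sensitivity of this comparison.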
